A study of Mus musculus with 6 samples.

Results

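In all, 35 genes whose mRNA marks the cells of brain blood vessels were followed in hippocampal libraries of 3 5xFAD and 3 wild-type (WT) mouse samples, taken at 3 months of age. The set is a fixed list of gene symbols, 22 of endothelial cells, 7 of pericytes, 5 of arterial smooth muscle and Mcam, which endothelial and mural cells both express. All 35 were found among the 17385 protein-coding genes of the count table. The 5xFAD mouse expresses mutant human transgenes of inherited Alzheimer's disease, among them APP with the Swedish, Florida and London changes, driven in neurons by the mouse Thy1 promoter, and it deposits amyloid early. WT animals were littermates without the transgenes, and the mice of both genotypes were perfused with saline before dissection. Which mouse each sample came from was not given in the sources used here, and the methods describe the sex of the animals in more than 1 way.

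Brain endothelial cells line the vessels and form the blood-brain barrier through tight junctions, low transcytosis and a set of polarised transporters. Pericytes sit on capillaries within the basement membrane, are recruited by PDGF-B from the endothelium and help keep the barrier closed. Smooth muscle cells wrap arteries and arterioles and set vessel tone with a contractile apparatus of smooth muscle actin, myosin heavy chain, transgelin, calponin and desmin. Amyloid can also deposit in vessel walls, where it lies close to smooth muscle cells.

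Every 5xFAD library lay below every WT library for 3 of 4 tested smooth muscle genes, 5 of 21 endothelial genes, 1 of 7 pericyte genes and Mcam, and for 15.1% of all genes tested. Log2 fold changes near -1 were seen for Acta2, Tagln and Myh11 of smooth muscle and for Vwf of endothelium. The groups of genes were not tested against each other. Mcam was the one gene of the 35 that passed the test, lower in 5xFAD, with a threshold of 0.05 on the adjusted p (edgeR quasi-likelihood test, Benjamini-Hochberg over 13937 genes). In bulk tissue, fewer cells of a type and less RNA per cell cannot be told apart. Over all genes tested, 0.0933% were called lower and 0.667% higher in 5xFAD. Levels are given as CPM, read counts scaled to the effective (TMM) library size, and fold changes are 5xFAD over WT on the log2 scale.

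Of the 35 genes, 33 passed the filter on low counts. Esam, an adhesion molecule of endothelial junctions, had 7, 14 and 10 counts in 5xFAD replicates 1 to 3. WT replicates 1 to 3 had 7, 4 and 4 counts. In CPM, Esam was higher in 5xFAD without overlap (0.33 to 0.78 against 0.18 to 0.31 in WT), near the detection floor. Cnn1, which encodes calponin, had 7, 3 and 7 counts in 5xFAD and 10, 4 and 27 counts in WT. Neither was tested with all libraries. Among the 33, 29 had a fold change below 0 and 4 above it, with a median of -0.26, against a median of -0.006 over all genes tested. The 5xFAD and WT values did not overlap for 10 of the 33, all lower in 5xFAD, beside 15.1% of all genes tested that were lower without overlap and 13.2% that were higher. An unadjusted p under 0.05 was likewise reached by 10, all lower, beside 9.03% of all genes tested.

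**Figure D1:**
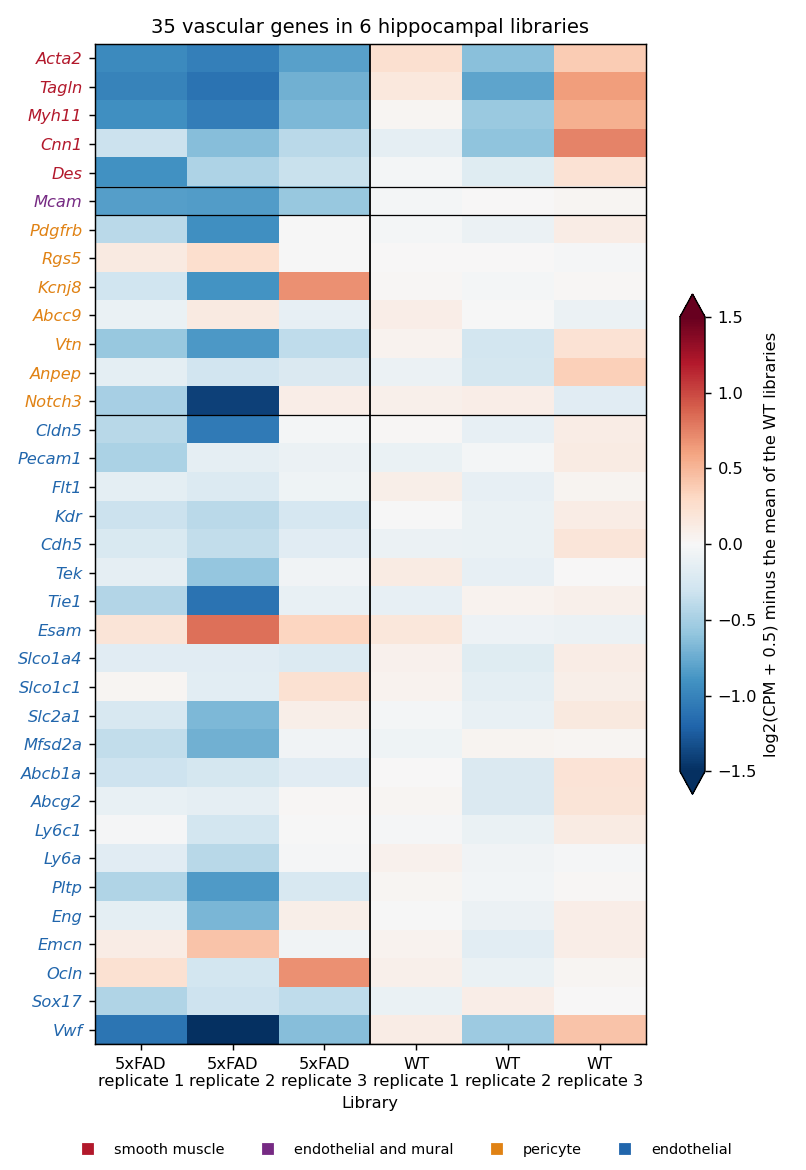
Level of each of the 35 genes (rows, grouped by cell type in coloured names) in each library (columns), as log2(CPM + 0.5) minus the mean of the 3 WT libraries, from blue (lower) to red (higher). The smooth muscle rows are blue in all 3 5xFAD libraries and most of them also in WT replicate 2, while most endothelial rows are darkest in 5xFAD replicate 2 and near white in 5xFAD replicate 3.

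Some features of the libraries touch these values and are given before them. Transcripts rich in GC were under-represented in 5xFAD replicates 1 and 2. Over 13707 genes, the Spearman correlation of transcript GC content with the log2 distance of a library from the average WT library was -0.526 and -0.662 in them, against -0.0738 in 5xFAD replicate 3 and -0.0581 to 0.0636 in WT. Cell group medians and some genes are therefore also given after correction of every library for GC content and transcript length (GC correction). Cell group medians and some genes are also given from 5xFAD replicate 3 alone against WT, which assumes that this single library varies as the WT ones do. A fold change given alone is from all libraries and is not corrected. Total counts were 18997677 to 23873280 per library.

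Libraries also differed in blood and vessel-associated RNA. The 5 red blood cell genes (Hba-a1, Hba-a2, Hbb-bs, Hbb-bt and Alas2) summed to 1.06 to 2.35 CPM in 5xFAD and to 54.9 to 84.9 CPM in WT. Of the 5, 4 were called lower by the quasi-likelihood test, beside 0.0933% of all genes tested. Alas2 had no count in any 5xFAD library, and Hbb-bt had none in 5xFAD replicates 1 and 3. The 9 fibroblast genes summed to 165.1 to 287.2 CPM in 5xFAD and to 201.5 to 348.7 CPM in WT, with a median fold change of -0.89. WT replicate 2 held the lowest fibroblast sum and the highest red blood cell sum of the WT libraries. The part of these cells in the vascular values was not tested.

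Smooth muscle was the group with the lowest median. Its 4 tested genes had a median fold change of -0.98, with values from -1.10 to -0.69, and all 4 stayed below 0 after GC correction (median -0.95) and in 5xFAD replicate 3 alone (median -0.80). None of the 4 passed the adjusted threshold by the quasi-likelihood test or limma-voom. All 4 had an unadjusted p under 0.05, beside 9.03% of all genes tested that were lower. DESeq2 and the edgeR exact test each called 3 of them, Acta2, Tagln and Myh11, beside 1.15% and 1.47% of all genes called lower by those tools.

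Acta2 encodes smooth muscle alpha-actin, the main thin-filament actin of arterial smooth muscle (chromosome 19, 34241090 to 34255590, minus strand, GRCm38). It had 19.02, 18.1 and 21.1 CPM in 5xFAD replicates 1 to 3, against 44.4, 24.05 and 48.7 CPM in WT replicates 1 to 3. The 3 5xFAD libraries lay close together and below every WT library, and WT replicate 2 stood near them rather than near the other two WT libraries. The means were 19.4 ± 1.54 CPM in 5xFAD and 39.0 ± 13.2 CPM in WT (SD, n = 3 each), and the log2 fold change came to -1.01 (SE 0.24, edgeR adjusted p = 0.146). With 1 library left out, Acta2 passed the threshold without WT replicate 2 (-1.26, edgeR adjusted p = 0.0299) and without 5xFAD replicate 3 (-1.07, adjusted p = 0.0263). The fit without 5xFAD replicate 3 called 10.9% of all genes tested lower. Acta2 did not pass without 5xFAD replicate 1 (adjusted p = 0.514), 5xFAD replicate 2 (0.0895), WT replicate 1 (0.514) or WT replicate 3 (0.293). Its fold change lay between -1.26 and -0.82 in the 6 fits.

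Because transcription of smooth muscle contractile genes is classically driven by serum response factor and myocardin at CArG boxes, the CArG-like boxes that a search found near the Acta2 start are shown. The search took CC, then 6 letters of which at least 5 are A or T, then GG, a form that reads the same on both strands. The sequences are from RefSeq (GRCm38.p6, minus strand), with the box in capitals and 10 bases on each side, at chr19:34255438-34255467 for the first and chr19:34255388-34255417 for the second.

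Acta2 box 1: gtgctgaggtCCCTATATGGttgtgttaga
Acta2 box 2: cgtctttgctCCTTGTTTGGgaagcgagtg

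The boxes began 84 and 34 bases before the RefSeq start of Acta2, at position 34255373. GENCODE M21 places the upstream end of the Acta2 gene 217 bases further upstream, at 34255590. Both boxes thus lie inside the gene bounds of that annotation, and whether they lie in an exon was not examined. Promoter windows from 250 bases before to 50 after a start were at hand for 26 of the 35 genes, in 30 windows, and for 3 of the smooth muscle genes, Acta2, Cnn1 and Des. Only the Acta2 window of those 3 held such a box. It also occurred in 5 of 20 endothelial windows (of Kdr, Tek, Slco1a4, Eng and Ocln), in none of 6 pericyte windows and in 9.984% of all 32851 windows, so the match is a description of the letters.

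Myh11 encodes the smooth muscle myosin heavy chain, which is found in few other cells. Its level was 14.3, 13.1 and 17.0 CPM in 5xFAD replicates 1 to 3, against 27.9, 18.4 and 40.0 CPM in WT replicates 1 to 3. No 5xFAD value reached the lowest WT value, again that of WT replicate 2, although 5xFAD replicate 3 came close to it. The log2 fold change was -0.96 (SE 0.26, edgeR adjusted p = 0.184), and it was -0.85 after GC correction.

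Tagln, the gene of transgelin, an actin-binding protein of smooth muscle, showed 5.43, 4.98 and 6.70 CPM in 5xFAD replicates 1 to 3 and 12.7, 6.35 and 17.9 CPM in WT replicates 1 to 3. Here the groups overlapped, since WT replicate 2 fell under 5xFAD replicate 3. The log2 fold change was -1.10 (SE 0.35, edgeR adjusted p = 0.215). In the GENCODE M21 annotation 62.4% of the exonic bases of Tagln are also covered by the antisense gene Gm48529. Whether the counting used strand was not stated in the sources read, and reads of the pair may not have been told apart.

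Des encodes desmin, the intermediate filament of muscle, which brain pericytes also make. It was low, at 1.18, 1.79 and 1.99 CPM in 5xFAD replicates 1 to 3, against 2.58, 2.27 and 3.15 CPM in WT replicates 1 to 3. The groups did not overlap, and the log2 fold change was -0.69 (SE 0.27, edgeR adjusted p = 0.253). The summed level of the 4 tested genes was 38.0 to 46.8 CPM in 5xFAD and 51.1 to 109.7 CPM in WT, with WT replicate 2 the lowest of WT for each of the 4.

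**Figure D2:**
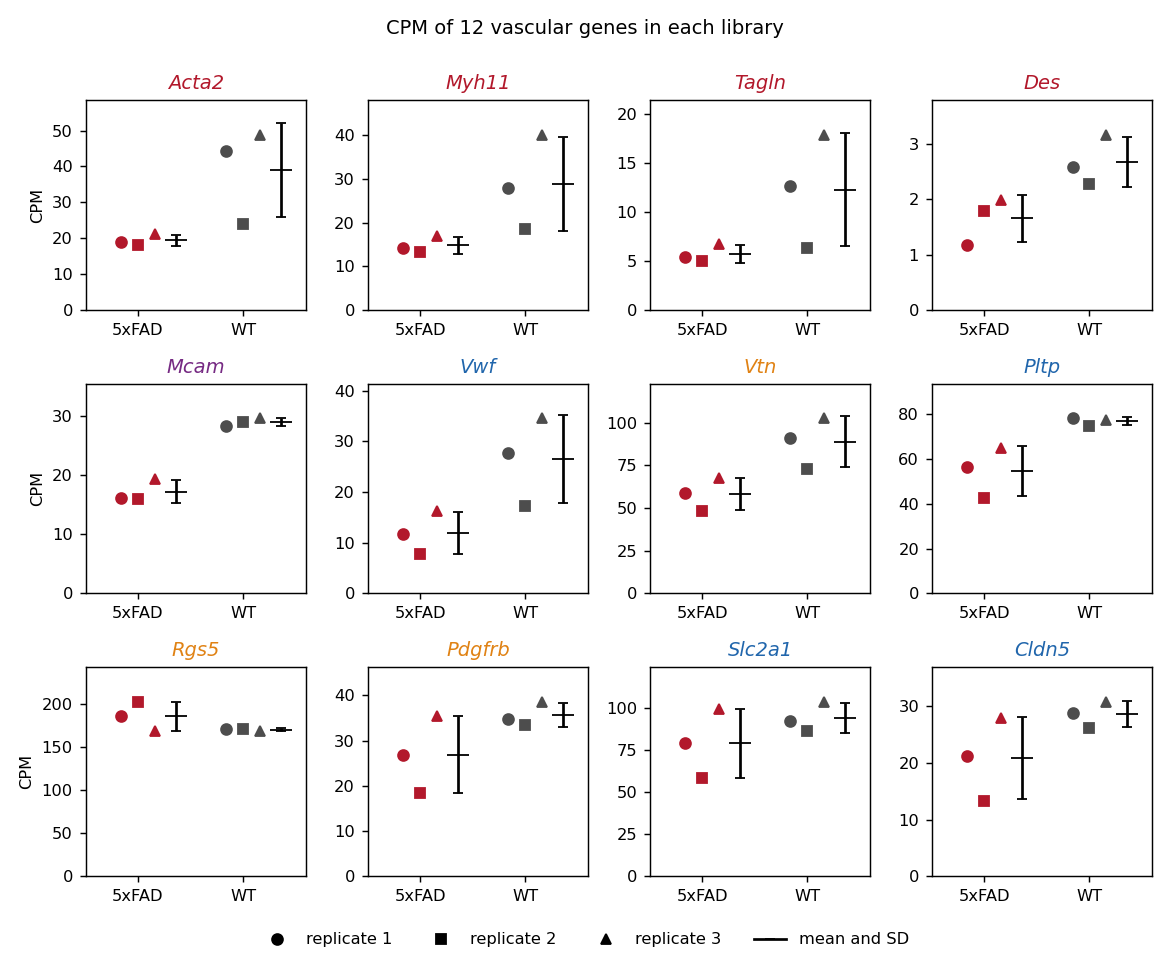
CPM (vertical axes, from 0) of 12 vascular genes in the 5xFAD libraries (red, left) and the WT libraries (grey, right), with one symbol shape per replicate number and the mean and SD of the group beside them. For Acta2, Myh11, Tagln and Vwf the 5xFAD points sit near or below WT replicate 2 (square) and far below the other WT points, for Mcam both groups are tight and apart, and for Pdgfrb, Slc2a1 and Cldn5 5xFAD replicate 3 (triangle) lies among the WT points.

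A list of 20 further mural genes held pericyte and smooth muscle genes together. Of its 17 tested genes 16 were below 0, with a median of -0.57 and values from -1.15 to 0.07. The median stayed below 0 after GC correction (-0.40) and in 5xFAD replicate 3 alone (-0.38). None was called by the quasi-likelihood test, DESeq2 or limma-voom, 1 was called by the edgeR exact test, and 7 had an unadjusted p under 0.05, all lower in 5xFAD. Over all genes tested, 1.47% were called lower by the exact test and 9.03% were lower at that unadjusted p. Aoc3, an amine oxidase of smooth muscle and endothelium, had the smallest adjusted p, at 0.191, with 0.944, 0.840 and 0.772 CPM in 5xFAD replicates 1 to 3 against 1.78, 1.34 and 2.56 CPM in WT replicates 1 to 3 (log2 fold change -1.15, SE 0.32, edgeR). Smtn (smoothelin, a contractile smooth muscle protein) had -0.59 and Myl9 (the regulatory myosin light chain) -0.58. After GC correction Smtn and Myl9 had -0.29 and -0.39. Myocd, the gene of myocardin itself, had under 1 CPM in all libraries and was not tested, and Mylk, the myosin light chain kinase, was the gene above 0, at 0.07.

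Mcam (CD146) is an adhesion molecule of endothelial and mural cells that also acts as a coreceptor in PDGF and VEGF signalling. It was even within each genotype, with 16.1, 15.95 and 19.4 CPM in 5xFAD replicates 1 to 3 against 28.3, 28.96 and 29.6 CPM in WT replicates 1 to 3. The gap between the highest 5xFAD and the lowest WT library was wider than the spread inside either group. Its log2 fold change was -0.75 (SE 0.11, edgeR adjusted p = 0.0328), and -0.63 after GC correction (adjusted p = 0.0106), where 0.201% of all genes were called lower. In 5xFAD replicate 3 alone it was -0.56 (adjusted p = 0.0581). The call was kept without 5xFAD replicate 2 (edgeR adjusted p = 0.0104) or 5xFAD replicate 3 (adjusted p = 0.00644). The fit without 5xFAD replicate 3 called 10.9% of all genes tested lower. The Mcam call was lost without 5xFAD replicate 1 (adjusted p = 0.257) and without WT replicate 1 (0.218), WT replicate 2 (0.165) or WT replicate 3 (0.132). Its fold change lay between -0.85 and -0.69 in those 6 fits.

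Pericyte genes ranged in fold change from -0.61 to 0.13, and 6 of the 7 tested were below 0. Their median was -0.25, and it was -0.15 after GC correction, again with 6 below 0. In 5xFAD replicate 3 alone the median was 0.005, and 3 of the 7 were below 0. None was called by the quasi-likelihood test or limma-voom, and 1, Vtn, had an unadjusted p under 0.05 and was called by DESeq2 and the edgeR exact test. Of all genes, 9.03% were lower at that unadjusted p, and DESeq2 called 1.15% lower and the exact test 1.47%. Per kilobase of transcript, the levels averaged over the 6 libraries spanned 1.02 CPM for Kcnj8 to 43.6 CPM for Rgs5.

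Rgs5, a regulator of G-protein signalling and the most abundant pericyte gene here per kilobase, had 186.6, 203.2 and 169.3 CPM in 5xFAD replicates 1 to 3, against 171.5, 171.6 and 168.6 CPM in WT replicates 1 to 3. The groups overlapped, with 5xFAD replicate 3 inside the narrow WT range. Its log2 fold change was 0.13 (SE 0.09, edgeR adjusted p = 0.397), and its sign turned after GC correction, to -0.10. The Rgs5 transcript has a GC content of 41.1%, the lowest of the pericyte genes.

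Vtn, which encodes vitronectin, a matrix glycoprotein that pericytes lay down in the capillary basement membrane, had 58.9, 48.2 and 67.4 CPM in 5xFAD replicates 1 to 3. WT replicates 1 to 3 had 90.9, 72.8 and 102.4 CPM, so the groups did not overlap. The log2 fold change of Vtn was -0.61 (SE 0.16, edgeR adjusted p = 0.170), -0.46 after GC correction and -0.38 in 5xFAD replicate 3 alone.

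Pdgfrb, the receptor through which endothelial PDGF-B recruits pericytes, split the 5xFAD libraries. It had 26.8, 18.5 and 35.5 CPM in 5xFAD replicates 1 to 3, against 34.8, 33.5 and 38.6 CPM in WT replicates 1 to 3. Replicates 1 and 2 lay below the WT range and replicate 3 inside it. The log2 fold change was -0.40 (SE 0.21, edgeR adjusted p = 0.309) in all libraries and 0.009 in 5xFAD replicate 3 alone. Notch3, the Notch receptor of mural cells, followed the same order, with 11.04, 5.65 and 16.9 CPM in 5xFAD replicates 1 to 3 and 14.0 to 16.9 CPM in WT (-0.49, SE 0.33, edgeR adjusted p = 0.391). Its fold change was -0.23 after GC correction and 0.11 in 5xFAD replicate 3 alone. Notch3 has the GC-richest transcript of the pericyte genes, at 59.6%.

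The remaining pericyte genes overlapped between genotypes. Kcnj8 and Abcc9 encode the pore (Kir6.1) and the regulatory subunit (SUR2) of the vascular ATP-sensitive potassium channel and lie 16248 bases apart on chromosome 6. The pair was not highest in the same libraries. Kcnj8 had 2.03, 1.18 and 4.51 CPM in 5xFAD replicates 1 to 3 against 2.55 to 2.67 CPM in WT, so that its 5xFAD libraries lay on both sides of WT, and the log2 fold change came to -0.004 (SE 0.44, edgeR adjusted p = 0.996). Abcc9 had 14.2, 16.8 and 14.0 CPM in 5xFAD against 14.4 to 16.4 CPM in WT (-0.03, SE 0.12, adjusted p = 0.872). Anpep, aminopeptidase N, was at -0.25 on the log2 scale (SE 0.19, edgeR adjusted p = 0.432).

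**Figure D3:**
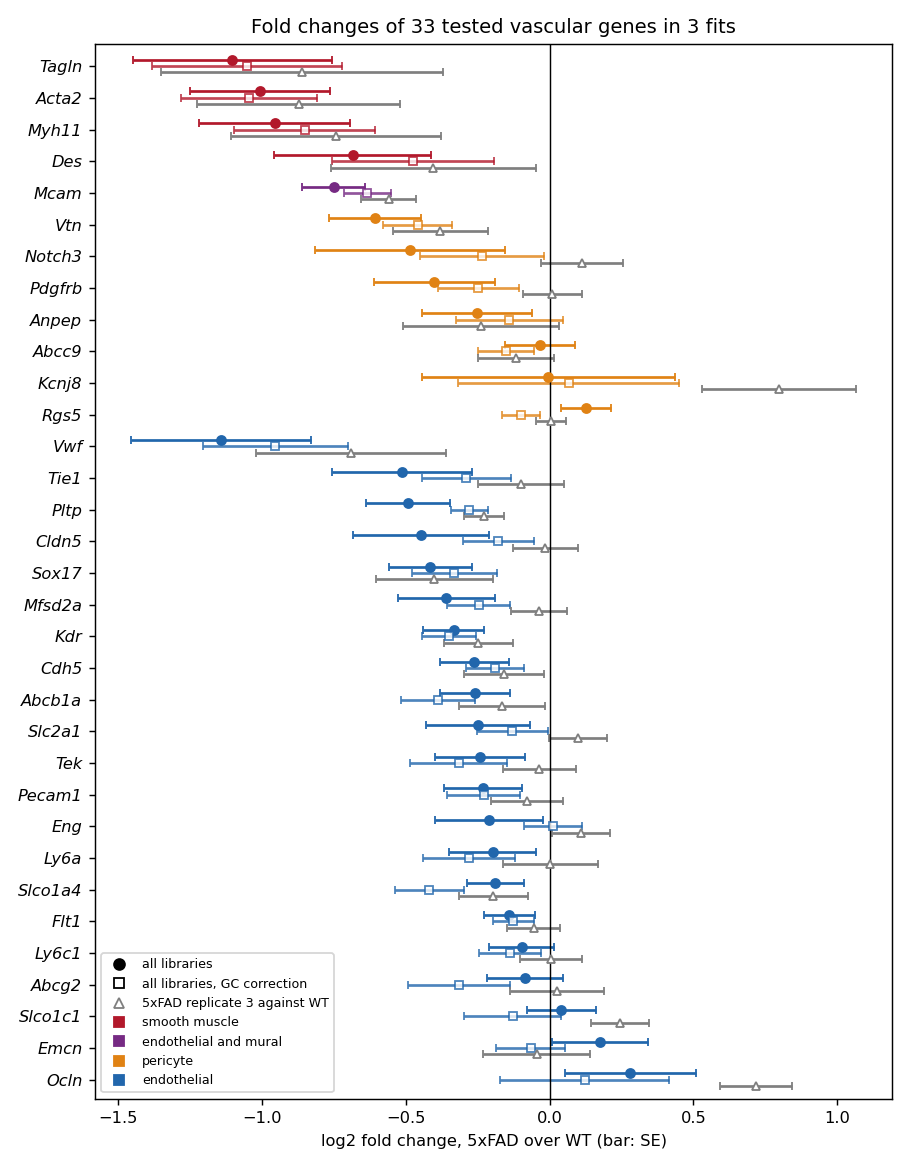
Log2 fold change (horizontal axis, 5xFAD over WT, with SE bars) of each of the 33 tested genes in the fit of all libraries (filled circles), after GC correction (squares) and in 5xFAD replicate 3 alone against WT (grey triangles). Acta2, Tagln, Myh11, Des, Vwf, Mcam and Vtn stay left of 0 by more than their SE in all 3 fits. The endothelial genes Kdr, Pltp, Sox17, Slco1a4, Cdh5 and Abcb1a do so too. Notch3, Pdgfrb, Slc2a1 and Eng are among those that end at or right of 0 in replicate 3 alone.

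Endothelial genes lay further from WT in 2 of the 5xFAD libraries than in the third, with group medians of -0.23 and -0.37 in 5xFAD replicates 1 and 2 and -0.05 in replicate 3, as log2(CPM + 0.5) minus the WT mean. Over 21 tested genes the median fold change was -0.24, with 18 below 0, and it was -0.25 after GC correction and -0.05 in 5xFAD replicate 3 alone. No endothelial gene was called by the quasi-likelihood test or limma-voom. DESeq2 and the edgeR exact test each called 1, Vwf, and 4 (Vwf, Pltp, Kdr and Sox17) had an unadjusted p under 0.05, all lower in 5xFAD. Of all genes, DESeq2 called 1.15% lower and the exact test 1.47%, and 9.03% were lower at that unadjusted p. Summed over the group, the level was 519.9 to 686.3 CPM in 5xFAD and 654.1 to 767.1 CPM in WT, so 5xFAD replicate 3 lay in the WT range. Gene by gene, 5xFAD replicate 3 lay within or above the WT range for 71.4% of the endothelial genes, against 67.5% of all genes tested.

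Vwf, von Willebrand factor, is a clotting glycoprotein that endothelium of larger vessels makes more than that of capillaries. It had 11.7, 7.84 and 16.2 CPM in 5xFAD replicates 1 to 3, against 27.6, 17.2 and 34.5 CPM in WT replicates 1 to 3. The groups stayed apart by little. WT replicate 2 was the lowest of WT, as it was for 17 of the 21 tested endothelial genes and the 4 tested smooth muscle genes. The log2 fold change was -1.14 (SE 0.31, edgeR adjusted p = 0.182), the furthest from 0 of the 33 genes, and it was -0.95 after GC correction and -0.69 in 5xFAD replicate 3 alone. Without 5xFAD replicate 3 it was -1.43 (edgeR adjusted p = 0.0192), in a fit that called 10.9% of all genes tested lower. Vwf did not pass with any other single library left out (adjusted p from 0.113 to 0.521).

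Of the VEGF and angiopoietin receptors, Kdr (VEGF receptor 2, the main signalling receptor for VEGF-A) had 17.3, 16.2 and 18.0 CPM in 5xFAD replicates 1 to 3 and 21.5, 20.2 and 23.4 CPM in WT replicates 1 to 3. Its groups did not overlap, and its log2 fold change was -0.33 (SE 0.11, edgeR adjusted p = 0.216), -0.35 after GC correction and -0.25 in 5xFAD replicate 3 alone. Flt1, the VEGF receptor 1 that traps ligand, had -0.14. Tek (Tie2, the angiopoietin receptor) and its partner Tie1 had -0.24 and -0.51, and neither was apart from WT in all libraries. After GC correction Tek and Tie1 had -0.32 and -0.29, and in 5xFAD replicate 3 alone -0.04 and -0.10. Eng, a coreceptor for TGF-beta family ligands, had -0.21 in all libraries and 0.01 after GC correction.

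Sox17, a transcription factor of arterial endothelium, had 5.15, 5.71 and 5.40 CPM in 5xFAD replicates 1 to 3, against 6.67, 7.74 and 7.26 CPM in WT replicates 1 to 3. Its 5xFAD libraries were as close to each other as the WT ones and did not overlap them. The log2 fold change was -0.42 (SE 0.14, edgeR adjusted p = 0.229) and -0.40 in 5xFAD replicate 3 alone. An antisense transcript, Gm37587, covers 16.9% of its exonic bases.

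Of the junction and adhesion genes, Cldn5, the dominant tight junction claudin of brain endothelium, had 21.2, 13.3 and 27.9 CPM in 5xFAD replicates 1 to 3 and 28.7, 26.1 and 30.7 CPM in WT replicates 1 to 3, so that 5xFAD replicates 1 and 2 lay below the WT range and replicate 3 inside it. Its transcript is the GC-richest of the 33, at 60.5%, and its log2 fold change was -0.45 (SE 0.24, edgeR adjusted p = 0.309), -0.18 after GC correction and -0.02 in 5xFAD replicate 3 alone. Ocln, occludin, was the endothelial gene with the highest fold change, 0.28 (SE 0.23, edgeR adjusted p = 0.462). Its fold change was 0.12 after GC correction and 0.72 in 5xFAD replicate 3 alone. It had 14.8, 10.3 and 20.4 CPM in 5xFAD against 11.7 to 13.2 CPM in WT, with 5xFAD libraries above and below WT. Cdh5 (VE-cadherin) and Pecam1 (CD31) had -0.26 and -0.23, and Cdh5 did not overlap between the groups.

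Among barrier transporters, Slc2a1 (GLUT1, which carries glucose into the brain) had 78.9, 58.5 and 99.4 CPM in 5xFAD replicates 1 to 3, against 91.8, 86.4 and 103.5 CPM in WT replicates 1 to 3. Again 5xFAD replicates 1 and 2 were below WT and replicate 3 was within it, and the log2 fold change came to -0.25 (SE 0.18, edgeR adjusted p = 0.416). Mfsd2a, the lysolipid transporter that restrains transcytosis, had -0.36, Slco1a4 (an organic anion transporter) -0.19 and Slco1c1 (which carries thyroid hormone) 0.04. After GC correction Mfsd2a and Slco1a4 had -0.25 and -0.42, and in 5xFAD replicate 3 alone -0.04 and -0.20. The efflux pumps Abcb1a (P-glycoprotein) and Abcg2 had -0.26 and -0.09. Of the 75-base stretches of Abcb1a, 11.4% occur in other transcripts too, mainly of Abcb1b, which had 80 to 165 counts per library, so reads may have been split between them.

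Pltp, the phospholipid transfer protein, was abundant per kilobase (24.5 CPM in 5xFAD and 34.6 CPM in WT) and had 56.4, 42.5 and 65.0 CPM in 5xFAD replicates 1 to 3 against 78.2, 75.02 and 77.6 CPM in WT replicates 1 to 3. All 5xFAD libraries lay below the tight WT range. Its log2 fold change was -0.49 (SE 0.15, edgeR adjusted p = 0.2005), -0.28 after GC correction and -0.23 in replicate 3 alone, and Ctsa on the other strand shares 19.3% of its exonic bases. Ly6c1, a surface antigen of brain endothelium and the group's highest gene per kilobase, had 30.5, 25.6 and 30.8 CPM in 5xFAD replicates 1 to 3 and 30.6, 28.8 and 33.7 CPM in WT replicates 1 to 3, which overlap (-0.10, SE 0.11, edgeR adjusted p = 0.598). Of its 75-base stretches 21.3% are shared with Ly6c2, which had 1 to 6 counts per library. Ly6a (Sca-1) had -0.20 and Emcn, a sialomucin of capillary and venous endothelium, 0.18, turning to -0.07 after GC correction.

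**Figure D4:**
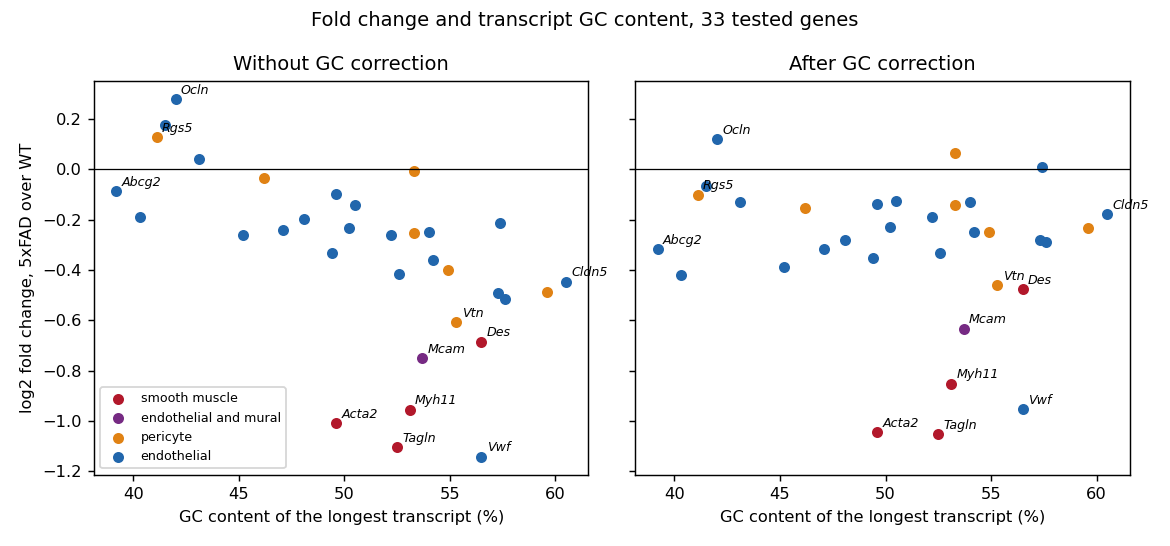
Log2 fold change (vertical axis, 5xFAD over WT) against the GC content of the longest transcript (horizontal axis, %) for the 33 tested genes, without (left) and after (right) GC correction. On the left the endothelial and pericyte points slope down from Ocln and Rgs5 near 40% GC to Cldn5 near 60%, and on the right most of that slope is gone while Acta2, Tagln, Myh11, Vwf and Mcam remain low.

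The fold changes of the 33 genes followed GC content. Their Spearman correlation with transcript GC content, given as a description across genes that share the same 6 libraries, was -0.65, against -0.57 over the 13707 genes with a known GC content. It was -0.13 after GC correction and -0.12 in 5xFAD replicate 3 alone. Among the smooth muscle genes the fold change after GC correction was -1.04 for Acta2 (49.6% GC), -1.05 for Tagln (52.5%), -0.85 for Myh11 (53.1%) and -0.48 for Des (56.5%), against -1.01, -1.10, -0.96 and -0.69 without it. The median GC content of all genes tested was 50.2%.

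The libraries took the same places for many vascular genes. 5xFAD replicate 2 was the lowest of all 6 libraries for 24 of the 33 genes (72.7%, against 36.8% of all genes tested). WT replicate 2 was the lowest WT library for 25 of the 33 (75.8%, against 36.4%). Without 5xFAD replicate 3, 13 of the genes were called instead of 1, all lower, but 10.9% of all genes tested were then called lower as well. The 13 were Mcam, Vwf, Acta2, Tagln, Myh11, Vtn, Notch3, Pdgfrb, Cldn5, Tie1, Mfsd2a, Pltp and Slc2a1.

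Ligands and other receptors of the vessel wall were examined beside the marker genes, in lists of textbook members. No gene of the 22 vascular ligands and receptors was called by the quasi-likelihood test, DESeq2, limma-voom or the edgeR exact test. Beside 1259 lower and 1375 higher of all 13937 genes tested, 3 lower and 1 higher had an unadjusted p under 0.05. Nrp1, a coreceptor for VEGF that neurons also express, was the higher one, with 160.9, 173.5 and 154.9 CPM in 5xFAD replicates 1 to 3 and 137.3, 124.9 and 142.5 CPM in WT replicates 1 to 3 (0.27, SE 0.09, edgeR adjusted p = 0.216). Vegfb, a ligand of Flt1, had -0.33, and 0.03 after GC correction. Vegfa, the ligand of Kdr and Flt1, did not stand apart (0.05, SE 0.08, edgeR adjusted p = 0.703). Pdgfb, the ligand of Pdgfrb, had 23.1, 13.9 and 26.05 CPM in 5xFAD against 28.5 to 30.2 CPM in WT, without overlap (-0.48, SE 0.21, edgeR adjusted p = 0.264). Its fold change was -0.20 after GC correction and -0.16 in 5xFAD replicate 3 alone. Angpt2, the angiopoietin that antagonises Tek, was low and also without overlap, with 1.18 to 1.38 CPM in 5xFAD against 1.53 to 2.70 CPM in WT (-0.81, SE 0.29, edgeR adjusted p = 0.236).

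Of the 20 tested genes of the Wnt and barrier programme, by which neural Wnt signals keep endothelium in a barrier state, none was called by the quasi-likelihood test or limma-voom, 1 by DESeq2 and 2 by the edgeR exact test, and 2, Foxf2 and Sox18, had an unadjusted p under 0.05, both lower in 5xFAD. Of all genes, DESeq2 called 1.15% lower and the exact test 1.47%, and 9.03% were lower at that unadjusted p. Foxf2, a forkhead factor of brain pericytes, had 3.16, 3.08 and 3.49 CPM in 5xFAD replicates 1 to 3, against 5.03, 4.87 and 7.63 CPM in WT replicates 1 to 3 (-0.84, SE 0.22, edgeR adjusted p = 0.171). The groups did not overlap, and the fold change was -0.55 after GC correction. Sox18, an endothelial transcription factor, had -0.68, and Apcdd1, a Wnt inhibitor of barrier endothelium, -0.36. After GC correction Sox18 and Apcdd1 had -0.38 and -0.42, and in 5xFAD replicate 3 alone -0.37 and -0.11. The Wnt pathway genes Axin2 and Lef1 had -0.16 each, and the Wnt receptor Fzd4 had -0.30. The list median was -0.19, and -0.11 after GC correction.

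Of 14 other barrier transporters 1 lower and 2 higher had an unadjusted p under 0.05, beside 1259 lower and 1375 higher of 13937 genes tested. None of the 14 was called by the quasi-likelihood test, DESeq2, limma-voom or the edgeR exact test. Slc22a8 (OAT3, an organic anion exporter) was the lower one, with 17.2, 15.7 and 20.4 CPM in 5xFAD replicates 1 to 3 against 28.6, 20.5 and 30.9 CPM in WT replicates 1 to 3, barely without overlap (-0.58, SE 0.18, edgeR adjusted p = 0.203). Slco2b1, which microglia express as well, had 0.45 in all libraries and 0.71 in 5xFAD replicate 3 alone (adjusted p = 0.0270), where it was the one gene called in the 5 lists of further vascular genes, beside 0.631% of all genes called higher in that fit. Lrp8, a receptor for reelin and apolipoprotein E, had 0.27.

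Genes of endothelial activation went both ways, with a list median of -0.49, and -0.30 after GC correction. Of the 11 listed, 7 were tested, 4 below and 3 above 0. In each direction 1 had an unadjusted p under 0.05, beside 1259 lower and 1375 higher of 13937 genes tested. None of the 7 was called by the quasi-likelihood test, DESeq2 or limma-voom. The edgeR exact test called 1 lower, beside 1.47% of all genes. Vcam1, an adhesion molecule for leukocytes, had 38.5, 42.7 and 35.9 CPM in 5xFAD replicates 1 to 3, against 31.3, 28.6 and 33.6 CPM in WT replicates 1 to 3, without overlap (0.32, SE 0.11, edgeR adjusted p = 0.223). Lrg1, a secreted glycoprotein of activated venules, was near the detection floor, at 0.0560 to 0.203 CPM in 5xFAD and 0.503 to 0.649 CPM in WT, with a fold change of -2.00 (SE 0.48, edgeR adjusted p = 0.144). Thbd, the anticoagulant receptor thrombomodulin, had -0.67. Nos3, the endothelial nitric oxide synthase, had -0.54 and -0.09 in 5xFAD replicate 3 alone.

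**Figure D5:**
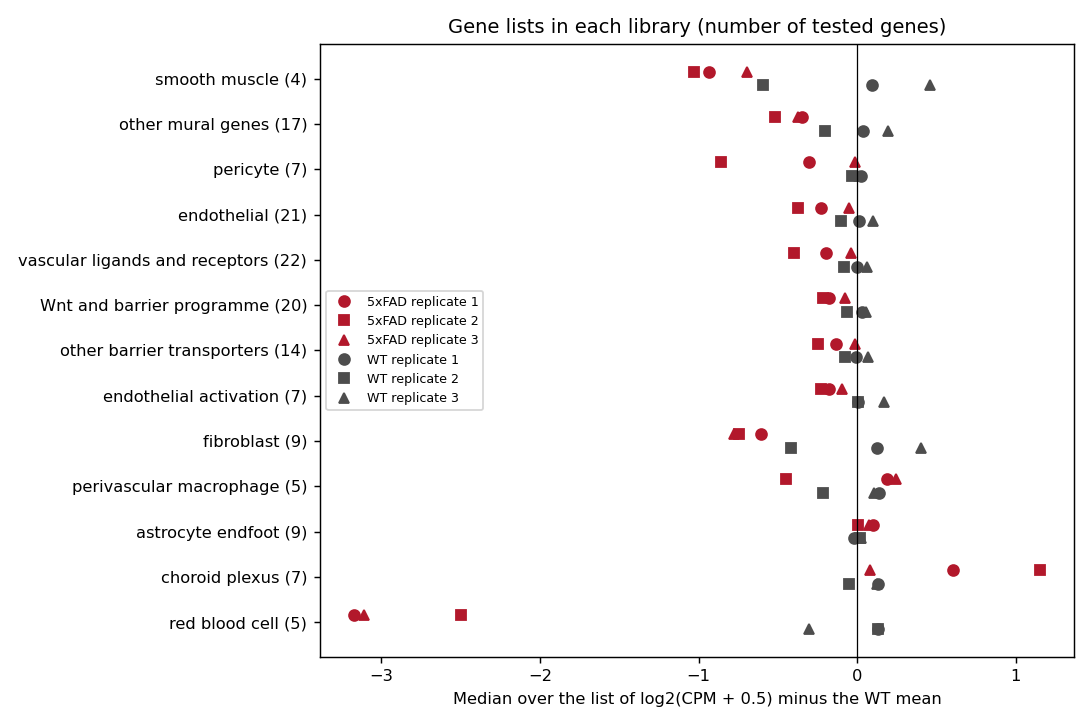
Median over each gene list of log2(CPM + 0.5) minus the WT mean (horizontal axis) in the 5xFAD libraries (red) and the WT libraries (grey), one symbol shape per replicate number, with the number of tested genes in brackets. The smooth muscle, fibroblast, other mural, Wnt and barrier, endothelial activation and red blood cell lists have all 3 5xFAD libraries left of WT. WT replicate 2 is nearest to them in the smooth muscle, fibroblast, other mural and Wnt and barrier lists. The endothelial and pericyte lists have 5xFAD replicate 3 beside the WT libraries, and the red blood cell list lies furthest left in 5xFAD.

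Other cells at the vessel wall were measured in the same way. Among the fibroblast genes, which mark perivascular and meningeal cells, all 9 tested were below 0 and 5 had an unadjusted p under 0.05. None was called by the quasi-likelihood test or limma-voom, and 2 each were called lower by DESeq2 and the edgeR exact test. Of all genes, DESeq2 called 1.15% lower and the exact test 1.47%, and 9.03% were lower at that unadjusted p. Col1a1, a chain of type I collagen, had 5.85, 7.17 and 6.75 CPM in 5xFAD replicates 1 to 3, against 13.2, 9.68 and 17.4 CPM in WT replicates 1 to 3, without overlap and with WT replicate 2 nearest to 5xFAD. The 5 tested perivascular macrophage genes summed to 5.43 to 8.78 CPM in 5xFAD and 6.44 to 8.77 CPM in WT, and none had an unadjusted p under 0.05. The 7 choroid plexus genes summed to 202.3 to 467.6 CPM in 5xFAD and 120.3 to 130.7 CPM in WT. Most of that was Ttr, transthyretin, with 267.1, 412.6 and 159.8 CPM in 5xFAD replicates 1 to 3 against 79.7, 81.1 and 91.6 CPM in WT replicates 1 to 3, while the other 6 summed to 42.5 to 55.0 CPM in 5xFAD and 39.1 to 44.7 CPM in WT. None of the 7 was called by the quasi-likelihood test or limma-voom, 1 was called higher by DESeq2 and 2 by the edgeR exact test. Of all genes, DESeq2 called 323 higher and the exact test 362. Of the 9 genes of the astrocyte endfoot, which ensheathes the vessels, Aqp4 was called higher in 5xFAD, beside 0.667% of all genes tested. Its levels were 328.6, 363.2 and 300.8 CPM in 5xFAD replicates 1 to 3. WT replicates 1 to 3 had 213.0, 195.8 and 227.9 CPM (log2 fold change 0.64, SE 0.10, edgeR adjusted p = 0.0372). The parts of these cells in the vascular values were not tested.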

How the data were processed

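Per the labels, hippocampal RNA of 3 5xFAD and 3 WT samples was depleted of ribosomal RNA and sequenced as 1 library each, and groups came from the sample titles. The submitters' processing notes name cutadapt 1.9.3, HISAT2 2.0.4, mm10, HTSeq 0.9.1 and edgeR 3.16.5. The authors deposited raw counts for every gene, not normalised, and these were used. The annotation release and strand setting of the counting were not stated in the sources read, and 6 per-sample columns of the authors' edgeR-normalised values were not used.

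Counts were tested in R 4.3.3 with edgeR 4.0.16 (filterByExpr, minimum count 10, TMM, quasi-likelihood test, two-sided, Benjamini-Hochberg over 13937 genes, threshold 0.05). The SE is the log2 fold change over the square root of F. GC correction used an offset per library from natural splines (4 degrees of freedom) of GC content and length, both taken from the longest protein-coding transcript in GENCODE M21 (GRCm38, as mm10). Coordinates are from the same release. Alternatives were RLE, upper-quartile and total scaling, no filter, DESeq2 1.42.0, the exact test, limma-voom (limma 3.58.1), a replicate block, GC correction, each library left out and 5xFAD replicate 3 alone. The steps were tested on simulated counts.

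Genes with every sample's value were those with p up to 0.05, or adjusted p up to 0.05 after GC correction, and the 3 highest per kilobase in each group. Cldn5, Ocln, Notch3, Kcnj8, Abcc9, Esam and Cnn1 were added after their values were seen. In the other lists up to 3 genes of smallest adjusted p were taken, and Vegfa, Pdgfb, Axin2, Lef1, Fzd4, Nos3, Mylk and Myocd for their roles. The 35 genes and all lists were chosen with earlier results of these data known. The study calls the samples independent biological replicates, but the labels do not tie them to single mice, so p-values measure the spread between these samples. Ttr was taken for its share of its list. Depth limits the precision of low genes, and counting error is the only error it covers.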

Additional observations from a re-analysis of the deposited data

How the results depend on the processing

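The number of the 35 genes called was 1 (Mcam). It stayed 1 with RLE or upper-quartile scaling, no low-count filter, limma-voom and GC correction, and was 0 with library totals and in 5xFAD replicate 3 alone, and 6 with DESeq2 and with the exact test. Leaving out 1 library gave 0 to 13. Samples with the same number did not deviate together (correlations -0.0362 to -0.0077), and with the replicate block 1 gene was called, Vwf in place of Mcam, and 2 with GC correction and the replicate block together. The endothelial median was -0.0454 in 5xFAD replicate 3 alone. The smooth muscle median was -0.80 there and ranged from -1.23 to -0.69 with 1 library left out.

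The sign of some genes turned. After GC correction, Slco1c1 was -0.13, Eng 0.0115, Emcn -0.0666, Rgs5 -0.10 and Kcnj8 0.0656, and with the replicate block added Slco1c1 was -0.15, Eng 0.0048, Emcn -0.0642 and Rgs5 -0.10. In 5xFAD replicate 3 alone, Slc2a1 was 0.10, Abcg2 0.0264, Ly6c1 0.0044, Ly6a 0.0022, Eng 0.11, Emcn -0.0454, Pdgfrb 0.0088, Notch3 0.11 and Kcnj8 0.80. Kcnj8 was 0.00035 with upper-quartile scaling. With 1 library left out, values ranged from -0.0651 to 0.14 for Slco1c1, -0.19 to 0.0145 for Abcg2, -0.70 to 0.34 for Kcnj8 and -0.12 to 0.0166 for Abcc9. The cause of these turns was not tested. Of 561 single-gene values under 17 settings, 29 were reversed, 25 were newly past the threshold and 7 fell short of it.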
